A study of Mus musculus with 32 samples.

Results

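The mouse Cyp3a family was followed across liver samples from 8 groups of mice. The family was taken as Cyp3a11, Cyp3a13, Cyp3a16, Cyp3a25, Cyp3a41a, Cyp3a41b and Cyp3a44, and its members were found by the gene name that the array design gives each probe. Of these 7 genes, 6 have a probe of their name, with 8 probes in all, and those 6 are among the 21289 genes measured. Cyp3a41a has no probe of its own name, and the Cyp3a41b probe lists transcripts of both Cyp3a41b and Cyp3a41a, so that probe cannot separate the pair. The family was chosen on values of these arrays, since before partial hepatectomy (PH) Cyp3a44 was far higher in MCD than in C mice and lower again in treated MCD-fed mice (M+Fc-GLP-1). Those differences are given as a description without a test, as are all others that use the C, MCD or M+Fc-GLP-1 arrays before PH. Tests were made on the arrays after PH, and on C+Fc-GLP-1 mice after against before PH. Results of those arrays were known too when the family was chosen, so these tests are not independent support.

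Male C57BL/6 mice, 8 weeks old at the start, received a standard chow (C) or a methionine and choline deficient (MCD) diet, a model of fatty liver with inflammation, for 3 weeks, and the treated groups (named C+Fc-GLP-1 on chow, M+Fc-GLP-1 on MCD) received a GLP-1 receptor agonist for the last 2 of these weeks while the others received saline. Livers were sampled at that time, when 70% of the liver was removed, and in other arrays 2 weeks after PH with diet and treatment continued, which leaves survivors of the operation only. The labels name the drug Fc-GLP-1 in some fields and an agonist of both GLP1R and GCGR in others. The arrays do not settle this conflict. For C+Fc-GLP-1 mice the sample labels name a dual agonist after PH, whereas for M+Fc-GLP-1 mice they name the same treatment continued. By these labels the drug may differ between these groups after PH, and between C+Fc-GLP-1 mice before and after PH. The labels do not state a pairing of samples before and after PH, although sample names share replicate numbers. The study compares livers after PH with liver removed at the operation from the same groups of mice. Whether arrays come from the same mice is not given, and they were fitted as independent. Each group had 4 arrays, 1 colour, 1 liver each, labelled as biological replicates and described in the study as mice. Values are log2 of the scanner's processed signal, from which the 75th percentile of each array was subtracted, called log2 signal throughout, and a value is not comparable between different probes. Differences are on that log2 scale, with 95% confidence intervals from limma and p-values adjusted by Benjamini-Hochberg over all 21289 genes at a threshold of 0.05. A probe is described as above background where the scanner software marked it well above background.

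Cyp3a enzymes are cytochromes P450 of the endoplasmic reticulum that oxidize many drugs, steroids and bile acids, using electrons from the P450 reductase Por. Cyp3a11 is the main form of the adult mouse liver and the classic target of the pregnane X receptor (PXR, gene Nr1i2), together with the constitutive androstane receptor (CAR, gene Nr1i3). Cyp3a44 and the Cyp3a41 pair are known as female-predominant forms of mouse liver, whose male levels are held low by the pulsatile growth hormone pattern of males. Cyp3a16 is best known from fetal and neonatal liver, Cyp3a25 is expressed in liver and gut, and Cyp3a13 is the more distant form, also found in the intestine. All but Cyp3a13 lie next to each other on chromosome 5, in the order Cyp3a57, Cyp3a16, Cyp3a41b, Cyp3a41a, Cyp3a44, Cyp3a11, Cyp3a25, Cyp3a59, and Cyp3a57 and Cyp3a59 belong to the cluster without being members here.

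Some members are near copies, so the sequences that the probes read decide what each signal can stand for. The Cyp3a44 probe (A_52_P366803, mm9 chr5:146585717-146585776, minus strand) and the Cyp3a41b probe (A_55_P2001780, mm9 chr5:146319794-146319853, minus strand) read the same place in their transcripts. Over the 53 bases where they overlap, 46 are the same (86.8%). The stretch of 30 bases that holds all 7 differences is given here, with the differing bases in capitals. It was bases 14 to 43 of the first probe and bases 21 to 50 of the second.
Cyp3a44: cagtgtctgtGcaAgttaAcatAtaatACG
Cyp3a41b: cagtgtctgtAcaGgttaTcatCtaatTAA
Whether RNA of the one gene adds to the signal of the other probe was not tested. Cyp3a11 has a pair of probes. The one that stands for the gene (A_55_P2121225, mm9 chr5:146666237-146666296, minus strand) lists 1 transcript, whereas the other (A_51_P355301) spans an exon junction in mm9 chr5:146672058-146673925 and lists 4 transcripts, those of Cyp3a11, Cyp3a41b, Cyp3a41a and Cyp3a44. Its sequence is shown because it is the one design on the array that names 4 members at once.
A_51_P355301: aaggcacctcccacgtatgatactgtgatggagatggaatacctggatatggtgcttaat
The other members' probes lie on the minus strand of mm9 at chr5:146197274-146197333 for Cyp3a16, chr5:146788879-146788938 for Cyp3a25, and chr5:138335412-138335471 and chr5:138334265-138334324 for Cyp3a13.

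The promoters of Cyp3a44, Cyp3a41a, Cyp3a41b and Cyp3a16 are near copies of each other. RefSeq (GRCm38.p6) promoter sequences were found for all 9 genes of the family. Over the 250 bases before the start, the Cyp3a44 sequence was 94.8% identical to that of Cyp3a41b, 94.4% to those of Cyp3a41a and of Cyp3a16, and 74.8% to that of Cyp3a11. Against Cyp3a13, Cyp3a57, Cyp3a25 and Cyp3a59 identity lay between 53.2% and 58.8%. The matching stretch is shown for 4 neighbouring genes to let these bases be read side by side. It runs from 130 to 21 bases before the start in Cyp3a44, all are on the minus strand of chromosome 5, and capitals mark bases that are not those of Cyp3a44 in an alignment.
Cyp3a44, GRCm38.p6 chr5:145805895-145806004: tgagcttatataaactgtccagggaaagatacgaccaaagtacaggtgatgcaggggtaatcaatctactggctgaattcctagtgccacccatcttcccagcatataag
Cyp3a41a, GRCm38.p6 chr5:145720157-145720266: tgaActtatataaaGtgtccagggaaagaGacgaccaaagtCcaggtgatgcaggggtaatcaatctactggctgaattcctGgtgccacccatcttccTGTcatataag
Cyp3a16, GRCm38.p6 chr5:145469748-145469857: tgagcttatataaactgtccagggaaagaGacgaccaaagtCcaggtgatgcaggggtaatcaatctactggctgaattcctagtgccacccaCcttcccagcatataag
Cyp3a11, GRCm38.p6 chr5:145879890-145879996: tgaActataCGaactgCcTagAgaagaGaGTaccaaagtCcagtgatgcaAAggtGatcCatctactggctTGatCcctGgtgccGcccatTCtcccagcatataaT
Cyp3a41a differs from Cyp3a44 here by 8 bases, Cyp3a16 by 3, and 22 of the Cyp3a11 bases are in capitals.

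Simple motifs were searched on both strands of the 300 bases around each start. AGGTCA, the nuclear receptor half-site, was found in 5 of the 9 genes (Cyp3a11, Cyp3a25, Cyp3a44, Cyp3a57 and Cyp3a59) and in 16.3% of all 32851 promoters. In Cyp3a44 it lay 150 bases before the start. ATCAAT, the core of the sites of the Cux2 and Hnf6 type, was found in 5 of 9 (Cyp3a16, Cyp3a41a, Cyp3a41b, Cyp3a44 and Cyp3a57) and in 7.5% of all promoters. CATATAA was found in the 5 genes Cyp3a11, Cyp3a16, Cyp3a41a, Cyp3a41b and Cyp3a44 and in 2.3% of all promoters, and TATAAA in the same 5 genes and in 13.6% of all. TTCNNNGAA, the letters of STAT5 sites, was in 0 of 9 and in 8.3% of all promoters. In Cyp3a44 no match overlapped another. The promoters of Cyp3a16, Cyp3a41a, Cyp3a41b and Cyp3a44 are 92.4% to 99.6% identical to each other over 250 bases. Matches that these genes share are thus not separate observations beside the share over all promoters. All matches describe letters in this window and say nothing of binding.

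**Figure D1:**
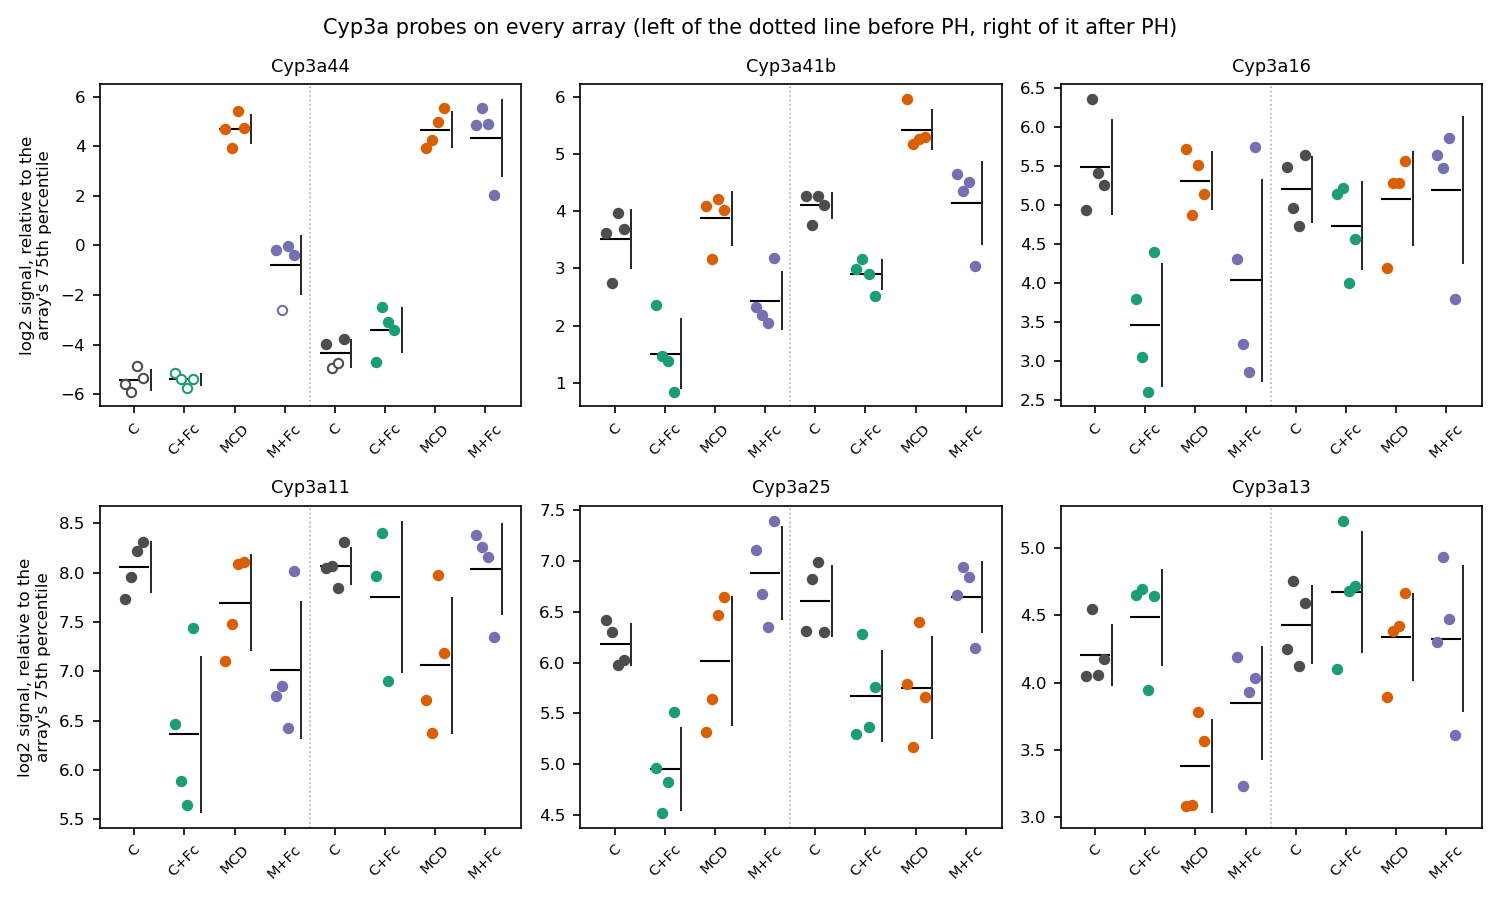
Each panel plots 1 member, with the log2 signal relative to the array's 75th percentile on the y axis and the 8 groups on the x axis, 4 before PH to the left of the dotted line and 4 after PH to the right (Fc stands for Fc-GLP-1). Points are arrays, open points were not well above background, and lines give the mean and SD. Cyp3a44 runs from about background in chow groups to log2 signals of 3.92 to 5.55 in MCD mice after PH, while the 5 other members stay within a narrower range.

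Cyp3a44 had the largest diet differences of the members. In C mice before PH its log2 signals were -5.60, -5.90, -4.86 and -5.34, above background on 0 of 4 arrays, and in C+Fc-GLP-1 mice they were -5.14, -5.37, -5.74 and -5.38, again on 0 of 4. MCD mice before PH had 4.69, 3.93, 5.44 and 4.73. The MCD arrays all lay far above every chow array, a difference of at least 756-fold against the background of the C arrays. M+Fc-GLP-1 mice before PH lay between the diets, at -0.20, -2.59, -0.04 and -0.38, with 3 of 4 arrays above background. Their mean differed from that of MCD mice by -5.50 on the log2 scale and was at least 13.7-fold above the background of C+Fc-GLP-1 mice. These are the values on which the family was chosen. The array at -2.59 also had the lowest share of probes above background of all arrays, 36.3%.

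After PH the difference between diets was present as well. Cyp3a44 log2 signals in C mice were -3.97, -4.94, -4.76 and -3.77, above background on 2 of 4 arrays, and in MCD mice 3.92, 4.24, 4.96 and 5.55. The groups did not overlap, and the mean was 4.67 ± 0.73 (SD, n = 4) in MCD against -4.36 ± 0.57 (SD, n = 4) in C mice. The difference was 9.03 (95% CI 7.83 to 10.22, adjusted p = 1.81e-11 by limma), or 522-fold by the means, with 2 of the 4 C arrays not above background. Of all genes tested, 12.2% passed in this comparison, 6.07% higher and 6.11% lower in MCD mice. Members that passed were 2 of 6, Cyp3a44 and Cyp3a41b, both higher. MCD and C arrays after PH lay on separate slides, so diet and slide cannot be told apart here. Both slides were read on scanner 2, which read no other group.

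Under Fc-GLP-1 the diet groups shared a slide after PH. Cyp3a44 log2 signals in C+Fc-GLP-1 mice were -4.69, -2.47, -3.09 and -3.41 and in M+Fc-GLP-1 mice 4.86, 5.53, 4.90 and 2.01. Again the groups did not overlap, and the difference was 7.74 (95% CI 6.54 to 8.94, adjusted p = 5.6e-10 by limma), or 214-fold. In this comparison 12.9% of all genes passed, 6.19% higher and 6.67% lower, and 3 of 6 members did, Cyp3a44, Cyp3a41b and Cyp3a25, all higher in M+Fc-GLP-1 mice. M+Fc-GLP-1 replicate 4, at 2.01, had the lowest signal of its group for all 6 members. Without that array the Cyp3a44 difference was 8.51 (adjusted p = 5.94e-12).

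The lower Cyp3a44 level of treated MCD mice before PH was not found after PH. M+Fc-GLP-1 and MCD mice after PH differed by -0.35 (95% CI -1.54 to 0.85, adjusted p = 0.779 by limma), with overlapping groups, and without M+Fc-GLP-1 replicate 4 the difference turned to 0.42 (adjusted p = 0.676). The M+Fc-GLP-1 mean was 5.12 higher after than before PH, with no overlap, whereas the MCD mean differed by -0.03. Neither value was tested, because the arrays before PH chose the gene. In chow mice after PH the difference between C+Fc-GLP-1 and C was 0.94 (95% CI -0.25 to 2.14, adjusted p = 0.489). Arrays before and after PH, and treated and untreated arrays, lay on different slides, so that slide cannot be told apart from PH or from drug in these values. After PH the untreated arrays were read on scanner 2 and all other arrays of the study on scanner 1, so drug after PH, and PH in untreated mice, cannot be told apart from scanner either.

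Cyp3a41b, the near copy, was above background on all 32 arrays and moved over a much smaller range. Before PH its log2 signals were 3.63, 2.75, 3.97 and 3.69 in C and 4.09, 3.16, 4.22 and 4.02 in MCD mice, overlapping groups whose means differed by 0.36. C+Fc-GLP-1 mice had 2.36, 1.47, 1.37 and 0.84, all below every C array, with a mean of 1.51 against 3.51. M+Fc-GLP-1 mice had 2.32, 2.18, 2.04 and 3.19. Both treated groups thus lay lower than the untreated group on the same diet, although M+Fc-GLP-1 and MCD arrays overlapped.

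After PH, Cyp3a41b was at 4.27, 3.77, 4.26 and 4.11 in C and at 5.97, 5.18, 5.26 and 5.31 in MCD mice, groups that did not overlap. The difference was 1.33 (95% CI 0.62 to 2.03, adjusted p = 0.0108 by limma), or 2.51-fold. With normexp background correction and quantile normalization it was 0.95 and no longer passed (adjusted p = 0.132). C+Fc-GLP-1 mice after PH had 2.98, 3.17, 2.91 and 2.52, and M+Fc-GLP-1 mice 4.66, 4.35, 4.51 and 3.05. Only replicate 4 of the latter lay within the range of the former, and the difference between these diets on 1 slide was 1.24 (95% CI 0.54 to 1.95, adjusted p = 0.0150). When only these groups were fitted it did not pass (adjusted p = 0.0522), nor in 3 of 8 fits without 1 array (highest adjusted p = 0.0624).

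Cyp3a41b was also the member that passed in a comparison of drug with no drug after PH. In M+Fc-GLP-1 mice it was lower than in MCD mice, by a difference of -1.29 (95% CI -1.99 to -0.58, adjusted p = 0.0236 by limma), with groups that did not overlap, while 6.45% of all genes passed, 3.70% higher and 2.76% lower in M+Fc-GLP-1 mice. Without M+Fc-GLP-1 replicate 4 the difference was -0.92 and did not pass (adjusted p = 0.0930), nor did it without MCD replicate 1 (-1.11, adjusted p = 0.0918). In chow mice after PH the difference between C+Fc-GLP-1 and C was -1.21 (95% CI -1.91 to -0.50, adjusted p = 0.0601), with no overlap. There 2.05% of all genes and 0 of 6 members passed, and at an unadjusted p under 0.05 3131 genes and 2 members did. With the 75th percentile taken over probes above background on every array, or with the authors' normalized values, the Cyp3a41b difference in chow mice passed, at -1.32 and -1.50 (adjusted p = 0.0309 and 0.0348).

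Cyp3a11, the main form of the adult liver, did not pass in any tested comparison. Its log2 signals before PH were 7.73, 7.96, 8.22 and 8.31 in C, 7.11, 7.48, 8.09 and 8.11 in MCD, 6.47, 5.89, 5.65 and 7.44 in C+Fc-GLP-1 and 6.75, 6.85, 6.43 and 8.02 in M+Fc-GLP-1 mice. The C+Fc-GLP-1 arrays all lay below the C arrays, with a mean difference of -1.69, and the 2 MCD groups overlapped. After PH it was at 8.05, 8.07, 7.85 and 8.31 in C, at 6.71, 6.38, 7.98 and 7.18 in MCD and at 8.38, 8.26, 8.16 and 7.35 in M+Fc-GLP-1 mice. In C+Fc-GLP-1 mice it was at 7.96, 8.40 and 6.90, with replicate 3 left out because the scanner software had flagged its spot.

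MCD against C mice after PH gave a Cyp3a11 difference of -1.01 (95% CI -1.81 to -0.20, adjusted p = 0.0956 by limma). Without MCD replicate 3, the highest of its group, it was -1.31 and passed (adjusted p = 0.0355). Between M+Fc-GLP-1 and C+Fc-GLP-1 mice the difference was 0.28 (95% CI -0.59 to 1.15, adjusted p = 0.752), an interval that holds changes in both directions. The probe that lists 4 transcripts gave -0.56 and 0.77 for these comparisons (adjusted p over probes = 0.291 and 0.130). This probe, which lists the Cyp3a44 transcript, did not show the rise that the Cyp3a44 probe showed. It lists Cyp3a11 too and already had a mean of 7.41 in C mice after PH, so it cannot show Cyp3a44 apart.

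Cyp3a25, a form of liver and gut, passed once. After PH it was at 5.29, 6.28, 5.36 and 5.76 in C+Fc-GLP-1 and at 6.66, 6.94, 6.84 and 6.15 in M+Fc-GLP-1 mice, where replicate 4 fell within the range of the former. The difference was 0.98 (95% CI 0.34 to 1.61, adjusted p = 0.0354 by limma), and it did not pass with normexp and quantile normalization (0.0880), with the authors' values (0.0691), without the filter on dim probes (0.0696) or with only these groups fitted (0.0616), nor in 6 of 8 fits without 1 array (highest 0.107). In untreated mice the direction was the opposite, with 6.31, 6.83, 6.99 and 6.30 in C against 5.79, 5.17, 6.40 and 5.66 in MCD mice, overlapping groups and a difference of -0.85 (95% CI -1.49 to -0.22, adjusted p = 0.0716). The difference between these diet differences, their interaction term, was 1.83 (95% CI 0.93 to 2.73) and did not pass (adjusted p = 0.140).

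No gene passed the interaction test after PH, 0% of 21289, although 1842 genes and 2 members had an unadjusted p under 0.05, so no member was shown to respond to diet differently with the drug. Its value was -1.29 for Cyp3a44 (95% CI -2.98 to 0.40, adjusted p = 0.707) and -0.08 for Cyp3a41b (95% CI -1.08 to 0.91, adjusted p = 0.988). Before PH, without a test, Cyp3a25 was at 6.42, 6.30, 5.97 and 6.03 in C, 5.32, 5.64, 6.47 and 6.64 in MCD, 4.96, 4.51, 4.82 and 5.51 in C+Fc-GLP-1 and 7.11, 6.68, 6.35 and 7.40 in M+Fc-GLP-1 mice. The C+Fc-GLP-1 group was thus the lowest and overlapped with neither C nor M+Fc-GLP-1 mice, the latter higher by 1.93.

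Cyp3a16, the fetal and neonatal form, and Cyp3a13 did not pass anywhere. Cyp3a16 was at 4.93, 6.36, 5.41 and 5.25 in C and at 3.80, 3.05, 2.61 and 4.396 in C+Fc-GLP-1 mice before PH, with no overlap and a mean difference of -2.03. After PH its group means lay between 4.73 and 5.20, and the tested diet differences were -0.12 (95% CI -1.15 to 0.91, adjusted p = 0.913 by limma) and 0.46 (95% CI -0.57 to 1.49, adjusted p = 0.638). Cyp3a13 was lower in MCD than in C mice before PH, without overlap, with differences of -0.82 and, on its other probe, -1.23. After PH its group means lay between 4.33 and 4.67, and the diet differences were -0.09 (95% CI -0.66 to 0.48, adjusted p = 0.878) and -0.35 (95% CI -0.92 to 0.22, adjusted p = 0.483). Intervals of this width leave room for differences of around 1 on the log2 scale for Cyp3a16.

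Chow-fed treated mice before PH thus had lower means than C mice for Cyp3a11, Cyp3a16, Cyp3a25 and Cyp3a41b, each without overlap, but not for Cyp3a13 (0.28 higher) and not measurably for Cyp3a44, which was below background in both groups. Of all genes, 5.41% had every C+Fc-GLP-1 array below every C array before PH, and these groups lay on different slides. From before to after PH in C+Fc-GLP-1 mice, which could be tested, 0.831% of all genes passed, with 0.479% of all genes higher after PH, and 1 of 6 members did. That was Cyp3a41b, higher by 1.39 after PH (95% CI 0.68 to 2.09, adjusted p = 0.0465 by limma), a call that was lost in 7 of 8 fits without 1 array. With normexp and quantile normalization it did not pass (0.86, adjusted p = 0.161), and Cyp3a11 (1.93, adjusted p = 0.0356) and Cyp3a25 (1.36, adjusted p = 0.0381) did. Differences for the others were 1.39 for Cyp3a11 (adjusted p = 0.106), 1.27 for Cyp3a16 (0.219), 0.72 for Cyp3a25 (0.262) and 0.19 for Cyp3a13 (0.793). Cyp3a44 was below background on all 4 arrays before PH, and its mean after PH was at least 2.23-fold above that background. Its difference of 1.99 did not pass (95% CI 0.79 to 3.19, adjusted p = 0.0953 by limma).

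**Figure D2:**
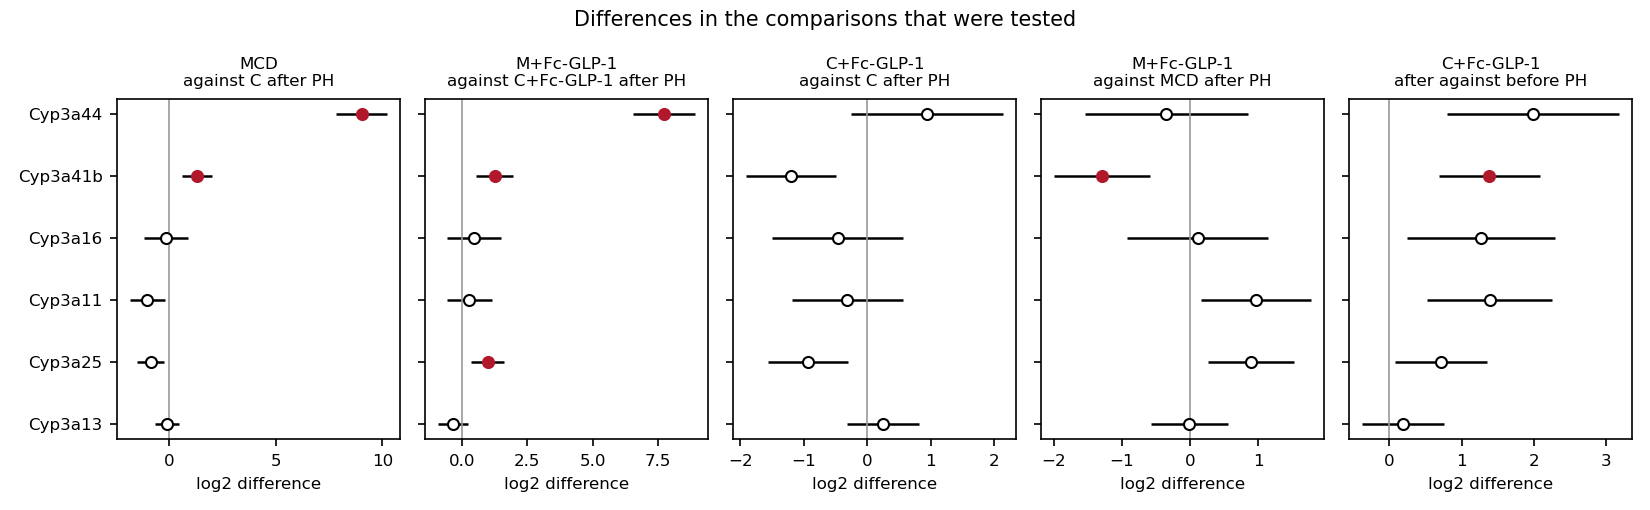
Each panel is a tested comparison, with the log2 difference on the x axis (scales differ between panels) and the 6 members on the y axis. Points are limma estimates, bars their 95% confidence intervals, and filled red points passed at an adjusted p of 0.05. Cyp3a44 and Cyp3a41b are filled in both diet panels, and Cyp3a44 lies at 9.03 and 7.74.

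**Figure D3:**
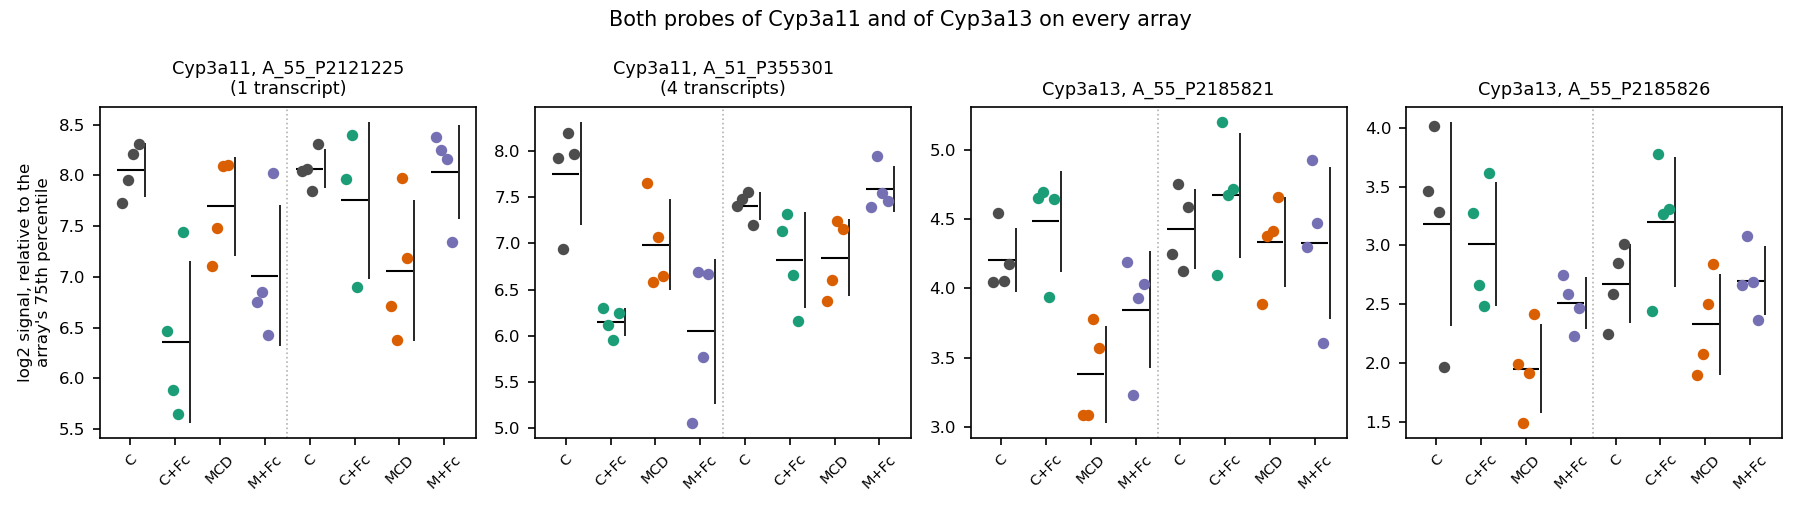
The panels plot both probes of Cyp3a11 and both probes of Cyp3a13, with the log2 signal relative to the array's 75th percentile on the y axis and the 8 groups on the x axis (before PH left of the dotted line, after PH right of it). Points are arrays and lines the mean and SD. Neither Cyp3a11 probe separates MCD from C mice after PH, with differences of -1.01 and -0.56 that did not pass.

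Neither of the cluster genes outside the members was higher in MCD than in C mice. Cyp3a57 gave -0.14 for MCD against C mice (adjusted p = 0.845 by limma) and 0.88 for M+Fc-GLP-1 against C+Fc-GLP-1 mice after PH (adjusted p = 0.081). Cyp3a59 fell by 1.07 in MCD mice (adjusted p = 0.0369) and gave 0.44 under Fc-GLP-1 (adjusted p = 0.463), but its other probe gave -0.23 and 1.90 (adjusted p over probes = 0.841 and 0.0210), so the probes disagree.

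Over all arrays, with diet, drug, PH and slide shared by the points, the Pearson r of Cyp3a44 was 0.612 with Cyp3a41b, 0.103 with Cyp3a11 and -0.276 with Cyp3a13. The highest r within the family was 0.781, between Cyp3a11 and Cyp3a16 (31 arrays), and Cyp3a11 and Cyp3a25 gave 0.619. Among genes outside the family, those most like Cyp3a44 over 32 arrays were Fbxw15 (r = 0.961), Afp (0.933), Calml4 (0.926), Vmn2r3 (0.921) and Tuba8 (0.916). Afp, the fetal serum protein alpha-fetoprotein, had mean log2 signals after PH of -0.95 in C, -1.11 in C+Fc-GLP-1, 1.87 in MCD and 1.99 in M+Fc-GLP-1 mice. Those most like Cyp3a11, over 31 arrays, were less close, with Limk2 at 0.702, Utp6 at 0.643, Brip1 at 0.639, Pnkd at 0.635 and Bloc1s1 at 0.630. These values describe the arrays and carry no test.

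Because Cyp3a44 and Cyp3a41 are female-predominant forms, lists of sex-biased liver genes were read beside them. All arrays came from males by their labels, and the Y-linked Ddx3y and Eif2s3y were above background on 32 of 32 arrays and Xist on 0. The Y-linked Kdm5d was above background on 1 of 32 arrays, and the probes of Uty on 1 and 7. Of 15 female-biased liver genes tested, 12 were higher and 0 lower in MCD than in C mice after PH, with a median difference of 2.54 against -0.03 over all genes. Under Fc-GLP-1 the counts were 11 and 0 and the median 2.92, against -0.01 over all genes. Of all genes, 6.07% and 6.19% were higher in these comparisons. All 15 were above background on every MCD array before PH, but only 10 on every C array after PH. The filter could thus admit a gene through the MCD groups where it was high, so these counts and medians may in part reflect the filter. Sult3a1, Hao2 and A1bg were on the array but too dim to be tested. Sult1e1, the estrogen sulfotransferase, was higher by 7.11 and 8.35 in these comparisons (adjusted p = 5.84e-06 and 4.84e-07 by limma).

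Male-biased liver genes went the other way. Of 18 tested, 0 were higher and 9 lower in MCD than in C mice after PH (median -1.90), and 1 was higher and 13 lower under Fc-GLP-1 (median -3.66). Of all genes, 6.11% and 6.67% were lower in these comparisons. The filter could likewise admit a gene of this list through the chow groups where it was high. With genes that were below background in a group set at their bound, the medians were -1.49 and -3.52. Serpina4-ps1 gave -7.17 and -9.70 (adjusted p = 0.000637 and 1.14e-05), and Hsd3b5, a steroid dehydrogenase, gave -5.33 and -7.77 (adjusted p = 0.0031 and 3.83e-05). Slco1a1, an organic anion transporter, gave -4.16 and -7.28 (adjusted p = 0.0192 and 8.71e-05), and Elovl3, a fatty acid elongase, gave -6.68 and -6.44 (adjusted p = 0.00023 and 0.000283). Cyp2u1 was the single male-biased gene that was higher, by 1.08. Before PH, without a test, the female-biased mean log2 signal ranged from 1.53 to 2.10 in MCD and from 2.68 to 2.89 in M+Fc-GLP-1 mice. The male-biased mean ranged from 1.78 to 2.71 and from 2.19 to 2.62. Cyp3a44 was lower in M+Fc-GLP-1 mice there (mean -0.80 against 4.70), so it did not follow the female-biased list in that comparison. Those groups lay on different slides.

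1 control array stood apart in these lists. C after PH replicate 1 had a male-biased mean log2 signal of 0.95, against 4.72 to 5.59 on the other 3 arrays of its group, and a female-biased mean of 0.23, against -1.75 to -1.55. Its hepatocyte marker mean was 7.83, the lowest of all 32 arrays. Its Cyp3a44 signal of -3.97 nevertheless lay within its group. Without it, 13 female-biased genes were higher and 14 male-biased genes lower in MCD mice, and the differences were 9.16 for Cyp3a44 (adjusted p = 7.66e-11) and 1.38 for Cyp3a41b (adjusted p = 0.0126).

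**Figure D4:**
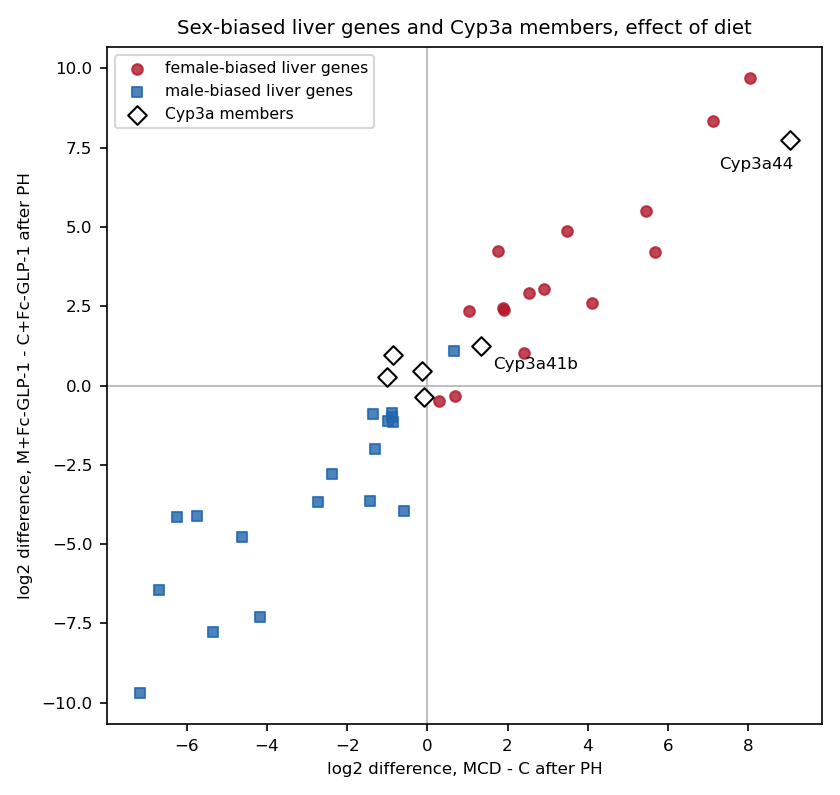
Each point is a gene, with its log2 difference MCD minus C after PH on the x axis and M+Fc-GLP-1 minus C+Fc-GLP-1 after PH on the y axis, 15 female-biased genes as red circles, 18 male-biased genes as blue squares and the 6 Cyp3a members as diamonds. Cyp3a44 (9.03 and 7.74) lies among the female-biased genes with the largest differences, Cyp3a41b (1.33 and 1.24) near their lower end, and Cyp3a25 at -0.85 and 0.98.

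Genes of the growth hormone and STAT5 axis, which sets the sex pattern of these genes, were read beside them. Of 13 tested, 1 was higher and 2 lower in MCD than in C mice after PH, and 1 higher and 4 lower under Fc-GLP-1. Over all genes, 12.2% and 12.9% passed in these comparisons. Cux2, a female-predominant repressor in mouse liver, was higher by 1.76 and 4.23 (adjusted p = 0.0126 and 4.49e-07 by limma), and in M+Fc-GLP-1 against MCD mice by 2.21 (adjusted p = 0.00489). Ghr, the growth hormone receptor, gave -1.39 and -1.76 (adjusted p = 0.0230 and 0.00396), and Igf1, its main secreted product in liver, gave -0.99 and -1.01 (adjusted p = 0.00548 and 0.00432). Bcl6, a male-predominant repressor, fell by 3.65 under Fc-GLP-1 (adjusted p = 0.000383) and gave -1.42 without the drug (adjusted p = 0.180). Cux2 and Bcl6 are also in the female-biased and male-biased lists. Without C after PH replicate 1, 1 gene of this list was higher and 4 were lower in MCD than in C mice.

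The xenobiotic receptors and the redox partners of the P450 enzymes were read as the other side of Cyp3a control. Of 12 tested, 3 were higher and 1 lower in MCD than in C mice after PH (median 0.03) and 2 higher and 1 lower under Fc-GLP-1 (median 0.08). Over all genes, 12.2% and 12.9% passed in these comparisons. Por was higher by 1.47 and 2.40 (adjusted p = 0.000471 and 4.84e-07 by limma), and Cyb5r3, a cytochrome b5 reductase, gave -1.05 and -1.36 (adjusted p = 0.0203 and 0.00265). Rxra, the shared partner of these receptors, was higher by 0.72 and 0.84 (adjusted p = 0.0488 and 0.0196), and Ppara, the fatty acid receptor, by 1.22 in untreated mice (adjusted p = 0.0108) with 0.71 under Fc-GLP-1 (adjusted p = 0.150). Without C after PH replicate 1, 1 gene of this list was higher and 2 were lower in MCD than in C mice. PXR itself, Nr1i2, gave 0.35 and 0.94 (adjusted p = 0.597 and 0.0944) and CAR, Nr1i3, gave 0.31 and 0.70 (adjusted p = 0.635 and 0.221), neither passing.

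Other targets of PXR and CAR showed no common direction. Of 18 tested, 5 were higher and 5 lower in MCD than in C mice after PH (median -0.04), and 7 higher and 3 lower under Fc-GLP-1 (median 0.21). Over all genes, 12.2% and 12.9% passed in these comparisons. Cyp2b10, the classic CAR target, was higher by 3.51 and 2.44 (adjusted p = 0.000672 and 0.0135 by limma), and Ces2a, a carboxylesterase, gave -3.42 and -2.02 (adjusted p = 2.53e-07 and 0.00032). Cyp2b9 was higher by 5.68 and 4.22 (adjusted p = 1.01e-05 and 0.000383) and Cyp2b13 was at least 16.9-fold higher in MCD than in C mice (adjusted p = 8.07e-12) and higher by 5.50 under Fc-GLP-1 (adjusted p = 6.37e-12), and both are in the female-biased list too.

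Markers of other cell types were read on the same arrays, since in whole liver fewer cells of a type and less RNA per cell cannot be told apart. All 9 hepatocyte markers were above background on every array after PH and 0 passed in either diet comparison. Over all genes, 12.2% passed in untreated mice and 12.9% under Fc-GLP-1. Kupffer cell and macrophage markers gave 0 called of 8 in untreated mice and 2 lower under Fc-GLP-1 (Clec4f and Timd4), endothelial markers 0 of 6 and 1 lower (Clec4g), lymphocyte markers 0 of 5 and 2 lower, and stellate cell and cholangiocyte markers 0 of 6 in both. Of 6 intestinal epithelium markers, Cdh17, Muc2 and Sis were too dim to be tested, whereas the other 3 were all higher in MCD mice. Vil1 gave 2.99 (adjusted p = 0.00104 by limma), Lgals4 2.06 (0.00228) and Fabp2 1.25 (0.0094), and under Fc-GLP-1 Lgals4 (2.32) and Fabp2 (1.09) passed. Their mean log2 signal ranged from 0.59 to 1.42 in C and from 2.66 to 3.36 in MCD mice after PH, and from 0.70 to 1.43 and from 2.44 to 2.85 in the treated groups, and its part in the Cyp3a values was not tested. Acute phase genes gave 2 higher (Lcn2 and Apcs) and 0 lower of 8, and 1 higher (Apcs) and 3 lower (Saa1, Saa2 and Crp) under Fc-GLP-1. M+Fc-GLP-1 replicate 4 after PH, lowest for the members, had a cholangiocyte mean of 2.30, against -1.15 to -0.79 on the other 3 arrays, and a hepatocyte mean of 8.22, against 8.78 to 9.11. Raised cholangiocyte means were also found on C+Fc-GLP-1 after PH replicate 1 (1.62, against -0.90 to -0.22) and C after PH replicate 1 (1.36, against -1.42 to -0.65). C+Fc-GLP-1 replicate 1 also had the lowest hepatocyte mean of its group, 8.41, and without it the Cyp3a44 difference under Fc-GLP-1 was 7.31. The part of this in the member values was not tested. Without M+Fc-GLP-1 replicate 4, the counts under Fc-GLP-1 were 0 for Kupffer cell and endothelial markers and 1 lower each for cholangiocyte and lymphocyte markers. Without C replicate 1, MCD against C mice gave 1 hepatocyte marker lower, 1 Kupffer cell marker higher and 2 lymphocyte markers lower.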

How the data were processed

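Liver RNA of 32 samples was hybridized to 1-colour Agilent arrays. The authors deposited scanner files with intensity values from Feature Extraction 10.7.3.1, background corrected and detrended within each array in linear units, and a table of log2 values that the authors had normalized (limma is named in the submitters' processing notes), used here as an alternative. Probe coordinates and names follow the mm9 design in the files. No column of another sample was present.

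From the intensities, log2 values were centred on each array's 75th percentile over 59305 non-control spots. Flagged outlier spots were left out, with at least 3 unflagged arrays required per group. A probe was kept if well above background on every unflagged array of at least 1 group (29300 of 55681 probes), and the brightest stood for each of 21289 genes, named through RefSeq accessions where matched (27656 probes). All 8 member probes passed. The share of probes well above background ran from 36.3% to 69.2%, the 75th percentile of intensity was 209.4 to 778.4, no member spot was saturated, and 4 arrays per group limit the precision.

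limma 3.58.1 (R 4.3.3) was fitted to all 8 groups with Benjamini-Hochberg adjustment and a threshold of 0.05, and tested on simulated data. Where no array of a group had a probe above background, its fold is a bound: the mean of the brighter group against the mean, per array, of the higher of the dim probe's value and the lowest signal of any probe well above background. Promoters and names came from RefSeq tables on GRCm38.p6, aligned with Biopython 1.88. The members, gene lists and rules were chosen with earlier results of these arrays known. Named from each list were at most 4 genes with the largest difference among those called in the diet comparisons after PH, with Nr1i2, Nr1i3, Por, Cux2, Xist, Ddx3y, Cyp3a57, Cyp3a59 and the 5 genes most correlated with Cyp3a44 and with Cyp3a11. Some genes that met this rule are not reported here. Alternatives were normexp (offset 50) with quantile normalization, other centring, the authors' values, no filter, other choices of probe, only the groups compared, a replicate block and each array left out in turn.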

Additional observations from a re-analysis of the deposited data

Results flagged for a closer look

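In 3 groups of 4 arrays a member had 1 value set apart from the others by more than the Dixon limit, which chance passes in about 1 of 20 groups. With 6 members read in 8 groups each, chance alone gives some such values. Cyp3a44 was at -2.59 on M+Fc-GLP-1 before PH replicate 2, far below the other 3 arrays of that group and not well above background. Cyp3a41b was at 5.97 on MCD after PH replicate 1, above the other 3. The main Cyp3a13 probe was at 3.94 on C+Fc-GLP-1 before PH replicate 3, below the other 3.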

How the results depend on the processing

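Cyp3a44 passed in both diet comparisons after PH under all 18 alternatives of each, between 6.93 and 9.28 for MCD against C and between 5.91 and 8.51 for M+Fc-GLP-1 against C+Fc-GLP-1. Counts of members called moved by more than 1.5 times as follows, and the cause was not tested. With normexp and quantile normalization, MCD against C gave 1 (2 in the fit reported), M+Fc-GLP-1 against MCD 0 (1) and C+Fc-GLP-1 after against before PH 2 (1), which were Cyp3a11 and Cyp3a25 in place of Cyp3a41b. C+Fc-GLP-1 against C gave 1 (0) with the percentile over probes detected on every array and with the authors' values, and C+Fc-GLP-1 after against before PH gave 0 (1) with median centring and with the dimmest probe. With only the groups compared fitted, M+Fc-GLP-1 against MCD gave 0, M+Fc-GLP-1 against C+Fc-GLP-1 gave 1 (3) and C+Fc-GLP-1 after against before PH 0. Smaller moves were 2 in place of 3 for M+Fc-GLP-1 against C+Fc-GLP-1 with normexp, with the authors' values and without the filter, and 3 in place of 2 for MCD against C with the percentile over probes detected on every array. Dropping every probe with a flagged spot was chosen after seeing the data and moved no count. Leaving out 1 array at a time gave 2 to 4 members for MCD against C (4 without MCD replicate 3, adding Cyp3a11 and Cyp3a25 at -1.07, adjusted p = 0.0330), 0 to 0 for C+Fc-GLP-1 against C, 0 to 2 for M+Fc-GLP-1 against MCD, 1 to 3 for M+Fc-GLP-1 against C+Fc-GLP-1 (1 without C+Fc-GLP-1 replicate 4 or M+Fc-GLP-1 replicate 1 or 3), 0 to 0 for the interaction and 0 to 1 for C+Fc-GLP-1 after against before PH.

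Directions that turned were all of values that had not passed. For Cyp3a13, MCD against C was 0.0017 with normexp and 0.030 with median centring (-0.20 to 0.057 without 1 array), M+Fc-GLP-1 against MCD was 0.18 over the mean of its probes and 0.37 on the dimmest (-0.21 to 0.23), and C+Fc-GLP-1 after against before PH was -0.23 with normexp. For Cyp3a16, MCD against C was 0.0012 with median centring (-0.28 to 0.18), and M+Fc-GLP-1 against MCD was -0.14 with normexp, -0.022 with median centring and -0.25 with the authors' values (-0.18 to 0.58). The Cyp3a41b interaction was 0.42 with normexp and 0.38 with the authors' values (-0.25 to 0.28). Without 1 array, Cyp3a11 ranged from -0.64 to 0.11 in C+Fc-GLP-1 against C and from -0.15 to 0.60 in M+Fc-GLP-1 against C+Fc-GLP-1, and Cyp3a44 from -0.75 to 0.42 in M+Fc-GLP-1 against MCD.

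Averaged over all pairs of groups, arrays with equal replicate numbers shared little (mean r of deviations 0.0173 for equal numbers, -0.0053 for others). Most of these pairs join different diets or drugs. Arrays of the same group before and after PH were not examined apart, so this mean cannot exclude that those are paired. With the number as a block, members called were 2, 0, 1, 3, 0 and 1 in the order above, and genes called 2614, 407, 1361, 2753, 0 and 159. Over all genes, MCD against C called 2593, and 1636 with only those groups. C+Fc-GLP-1 against C called 436, and 134 with normexp, 69 with the authors' values, 208 without the filter and 88 with only those groups. M+Fc-GLP-1 against MCD called 1374, and 845, 773 and 834 with the last 3 of these settings. M+Fc-GLP-1 against C+Fc-GLP-1 called 2736, and 1807 with the authors' values. The interaction called 0, and 5, 1 and 1 with normexp, the authors' values and only those groups. C+Fc-GLP-1 after against before PH called 177, and 1331 with normexp, 710 without the filter and 54 with only those groups. Leaving out 1 array gave 1674 to 3031 genes for MCD against C, 180 to 371 for C+Fc-GLP-1 against C, 696 to 1324 for M+Fc-GLP-1 against MCD, 2035 to 2467 for M+Fc-GLP-1 against C+Fc-GLP-1, 0 to 14 for the interaction and 22 to 137 for C+Fc-GLP-1 after against before PH.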
